A study of Mus musculus with 6 samples.

Results

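The BCL2 family decides, at the outer mitochondrial membrane, whether a stressed cell lives or dies, and the transcripts of 10 of its genes were followed in cultured mouse kidney cells depleted of Prune2. The 10 genes were Bcl2, Bcl2l1, Mcl1, Bcl2a1b, Bcl2a1d, Bax, Bak1, Bid, Bcl2l11 and Bbc3, chosen by name as survival and death genes of the family, out of 22274 genes in the deposited table. By their own symbol 8 of them were found. Bcl2a1b and Bcl2a1d were found by gene identifier, because the table gives 5 genes the single symbol Bcl2a1. All 10 passed the filter on low counts and were tested, Bcl2a1b and Bcl2a1d only through their control siRNA libraries.

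The study asked which transcripts respond when Prune2, a gene of the BCH domain family, is depleted in TGF-β-treated renal fibroblasts. The 3 Prune2 siRNA libraries came from cells labelled as a prune2 knockdown, and the 3 control siRNA libraries from cells labelled WT that were given a scrambled siRNA. Both groups were mouse cells labelled as primary renal fibroblasts, and both received TGF-β at 5 ng/ml for 48 h, so no untreated cells enter any comparison here. The sources used here give no age, strain, sex or number of animals. The labels do not say whether replicates were separate cultures, so p-values measure the spread between libraries, which may be technical. Library totals ran from 20075265 to 23234797 counts. Prune2 averaged 3.80 ± 0.629 CPM (counts scaled to library size with TMM factors) with Prune2 siRNA and 6.95 ± 0.774 CPM with control siRNA (SD, n = 3 each; log2 fold change -0.87, edgeR quasi-likelihood adjusted p = 0.000214). On the deposited FPKM the Prune2 difference was smaller, at -0.24 on log2(FPKM + 1) and -0.43 on log2(FPKM + 0.1), and was not called by limma (adjusted p = 0.191 and 0.197). Mean Prune2 FPKM was 0.847 with Prune2 siRNA and 1.18 with control siRNA, and an added pseudocount shrinks a difference between values this low. The authors' deposited table gives Prune2 a log2 fold change of -0.48, with an adjusted p of 0.000249 by the authors' own test, which is not named. That fold change was taken on mean FPKM without a pseudocount and was also smaller than the one on counts. The reason for the gap between counts and FPKM was not tested.

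The markers did not match the label evenly. Of 12 fibroblast markers listed, Dcn stood at 0.305 to 0.708 CPM with Prune2 siRNA and 0.244 to 0.347 CPM with control siRNA, and Lum at no more than 0.0854 and 0.130 CPM. Means with Prune2 siRNA and control siRNA were also low for Fap (0.0917 and 0.109 CPM), Thy1 (0.4998 and 0.593 CPM) and S100a4 (0.741 and 0.9197 CPM). Pdgfra averaged 4.87 and 5.02 CPM. The remaining listed markers were higher. Fbln2 stood at 820 to 865 CPM with Prune2 siRNA and 826 to 891 CPM with control siRNA, Vim at 364 to 414 and 536 to 598 CPM, Col1a1 at 191 to 217 and 232 to 239 CPM, and Pdgfrb at 19.7 to 22.1 and 15.9 to 22.1 CPM. The epithelial keratin Krt8 reached 2062 to 2333 CPM with Prune2 siRNA and 2362 to 2466 CPM with control siRNA, and the epithelial cadherin Cdh1 960 to 1019 CPM and 1038 to 1085 CPM. The cells thus carried markers of both kinds and are called by their label only. In such bulk RNA, fewer cells of a type and less RNA per cell cannot be told apart.

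The family works through 3 kinds of protein. Survival members (BCL2, BCL-XL from Bcl2l1, MCL1 and the A1 proteins from the Bcl2a1 genes) hold death proteins in a surface groove. The effectors BAX and BAK open the outer membrane and let cytochrome c out, and the BH3-only proteins (BID, BIM from Bcl2l11 and PUMA from Bbc3) carry stress signals by inserting their BH3 helix into that groove or by engaging the effectors. In kidney, this pathway is best known from tubular injury, and A1 is best known from blood cells.

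The single-copy genes called changed in opposite directions were the survival gene Bcl2l1 and the BH3-only gene Bcl2l11. Their coding sequences are shown at the BH3 core (GENCODE M21 transcripts, GRCm38, coding strand). In the BH3-only protein BIM this helix inserts into the groove of survival members. Capitals mark the leucine codon and the glycine-aspartate codons of the core, at residues 90 to 95 of Bcl2l1 and 150 to 155 of Bcl2l11. This spacing, a leucine followed after 3 residues by glycine and aspartate, was found once in each of 7 members and was not found in Bcl2a1b, Bcl2a1d or Bbc3.
Bcl2l1: aagcaagcgCTGagagaggcaGGCGAT
Bcl2l11: gcacaggagCTGcggcggatcGGAGAC

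The largest differences lay in the Bcl2a1 genes, which are near-copies of each other on chromosome 9. The first 150 coding bases of the 3 copies with more than a few counts are shown because they set how far the counts of one copy can be told from another. Capitals mark the positions at which the copies differ, 7 of the 12 such positions in the 516 coding bases (GENCODE M21 transcripts, GRCm38).
Bcl2a1b: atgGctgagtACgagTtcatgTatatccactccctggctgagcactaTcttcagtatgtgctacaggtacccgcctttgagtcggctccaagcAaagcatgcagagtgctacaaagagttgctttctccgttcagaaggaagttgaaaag
Bcl2a1d: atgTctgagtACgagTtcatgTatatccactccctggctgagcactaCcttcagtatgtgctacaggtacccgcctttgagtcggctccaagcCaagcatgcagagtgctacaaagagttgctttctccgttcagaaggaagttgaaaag
Bcl2a1a: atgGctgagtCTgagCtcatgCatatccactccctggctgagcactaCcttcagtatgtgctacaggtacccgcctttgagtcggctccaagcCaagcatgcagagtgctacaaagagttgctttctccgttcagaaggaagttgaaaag

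Over the whole coding sequence Bcl2a1b and Bcl2a1d differed at 6 of 516 bases (98.8% identity), Bcl2a1b and Bcl2a1a at 11, and Bcl2a1d and Bcl2a1a at 7. Of all 50-base windows of its transcript, 57.6% in Bcl2a1b, 79.5% in Bcl2a1d and 67.7% in Bcl2a1a also occurred in another copy. For 100-base windows the shares were 31.1%, 54.7% and 43.5%. The sources used here give neither the read length nor the handling of shared reads, so a count of one copy is uncertain and the sum over copies is given beside it. The annotated gene Gm29094 also overlaps 401 of the 817 exon bases of Bcl2a1b on the same strand.

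Upstream of each of these 3 copies stands the letter run GAGGAAGT, a core recognised by PU.1 (Spi1), the transcription factor of myeloid cells. It is shown in capitals with up to 30 bases on either side, on the strand of the gene (RefSeq, GRCm38.p6), at chr9:89199095-89199162 for Bcl2a1b, chr9:88731917-88731984 for Bcl2a1d and chr9:88956786-88956853 for Bcl2a1a.
Bcl2a1b: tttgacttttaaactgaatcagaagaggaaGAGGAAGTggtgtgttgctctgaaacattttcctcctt
Bcl2a1d: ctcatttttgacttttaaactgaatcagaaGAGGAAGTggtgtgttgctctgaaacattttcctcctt
Bcl2a1a: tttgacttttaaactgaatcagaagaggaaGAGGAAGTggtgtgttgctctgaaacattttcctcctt

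The stretches of Bcl2a1b and Bcl2a1a were identical throughout, and all 3 were identical over the 38 bases from the match onward. The match ended 140 bases before the RefSeq start of Bcl2a1b and 96 bases before those of Bcl2a1d and Bcl2a1a. The GENCODE M21 starts, at chr9:89199209 for Bcl2a1b, 88731914 for Bcl2a1d and 88956900 for Bcl2a1a, lie closer to the match. These distances thus depend on the annotation. Read on both strands, GAGGAAGT was found in 802 of 32851 windows of 250 bases upstream of mouse genes, or 2.44%. Among the 10 members it was found upstream of Bcl2a1b, Bcl2a1d and Bak1. The 10 members have 15 such windows, because some have several RefSeq starts, so a count of members is not a share of windows. An NF-kB-like run, GGGNNTTTC on either strand, was found upstream of Bcl2l1, Mcl1 and Bbc3, and in 3.72% of all windows. In Bcl2l1 and Bbc3 only 1 of the several windows of the gene held it. These matches describe letters and not bound sites.

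Compared per length, in the authors' deposited FPKM values (fragments scaled to transcript length and library depth), Bcl2l1 was the most abundant member, with a mean of 83.3 over the 6 libraries (range 75.95 to 89.98). Mcl1 followed at 66.9 FPKM and Bak1 at 61.7 FPKM, and the ranges of these neighbours overlapped. Bax stood at 45.6 FPKM, Bid at 23.3, Bcl2l11 at 16.9, Bbc3 at 7.49 and Bcl2 at 5.49 FPKM, and no range overlapped the next in this stretch of the order. Bcl2a1b (0.953 FPKM, 0.16 to 2.43) and Bcl2a1d (0.732 FPKM, 0.10 to 1.5) were last and overlapped each other. Bcl2, which gives the family its name, was thus the lowest of the members outside Bcl2a1.

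**Figure D1:**
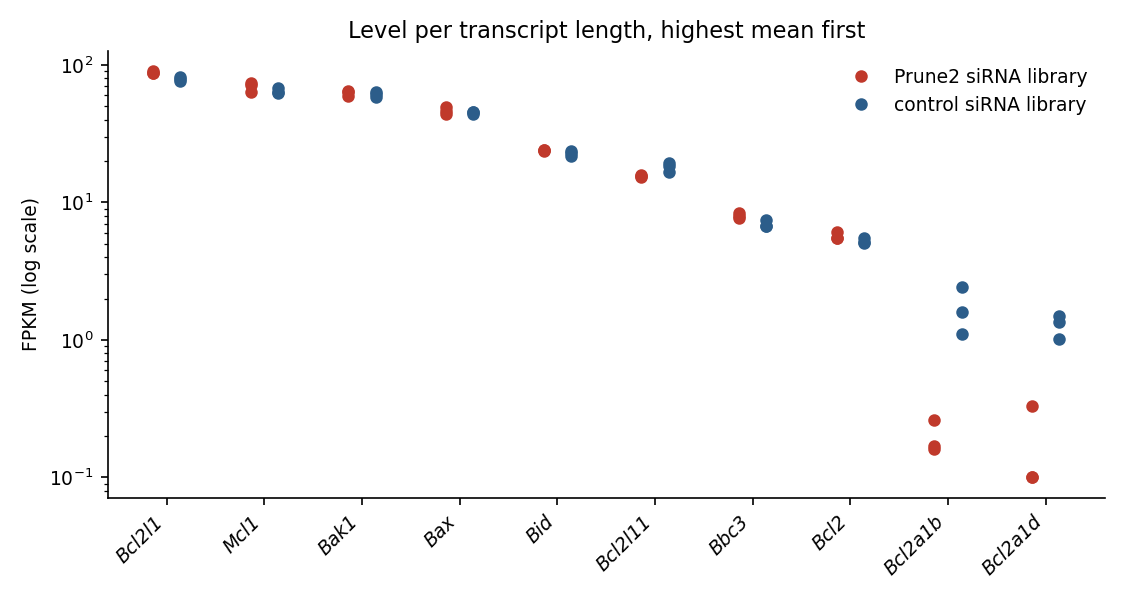
Deposited FPKM of each of the 10 members (log axis) in the 3 Prune2 siRNA and 3 control siRNA libraries, with members ordered by their mean over the 6 libraries. Bcl2l1 leads at a mean of 83.3 FPKM, and the groups stand clearly apart for Bcl2a1b and Bcl2a1d, the lowest members.

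By summed FPKM, the 5 survival members made up 50.9%, 50.6% and 51.8% of the 10-gene total with Prune2 siRNA and 49.96%, 49.3% and 49.6% with control siRNA. The effectors held 34.4%, 34.2% and 33.5% with Prune2 siRNA and 34.4%, 35.4% and 34.4% with control siRNA. The BH3-only members held 14.6%, 15.2% and 14.7% with Prune2 siRNA and 15.6%, 15.4% and 16.0% with control siRNA. The survival share was higher, and the BH3-only share lower, in each Prune2 siRNA library than in any control library. The effector shares overlapped. In each of these shares the groups lay within a few percentage points of each other, and no test was run.

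Between the groups, 4 of the 10 members were called changed at an adjusted p under 0.05 (edgeR quasi-likelihood test, adjusted over 13248 genes), 1 higher (Bcl2l1) and 3 lower (Bcl2a1b, Bcl2a1d and Bcl2l11). The calls over all tested genes came to 10.3%, with 4.46% higher and 5.83% lower. Of the 4 calls, 2 were for Bcl2a1 copies whose counts may share reads. These 2 passed the filter only through the control group, where they are high, so a lower call was the only one open to them. The 6 members not called all had log2 fold changes above 0, from 0.03 to 0.24. That of Bax was -0.00120 without Prune2 siRNA replicate 1. The median log2 fold change was 0.04 over the 10 members, 0.06 over the 8 outside Bcl2a1 and 0.00 over all tested genes. The groups did not overlap in 6 members, the 2 Bcl2a1 copies among them, against 24.3% of all tested genes. The authors' deposited table gave an adjusted p under 0.05 to 4 members, Bcl2l1, Bcl2a1b, Bcl2a1d and Bcl2l11, and to 1033 genes in all.

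**Figure D2:**
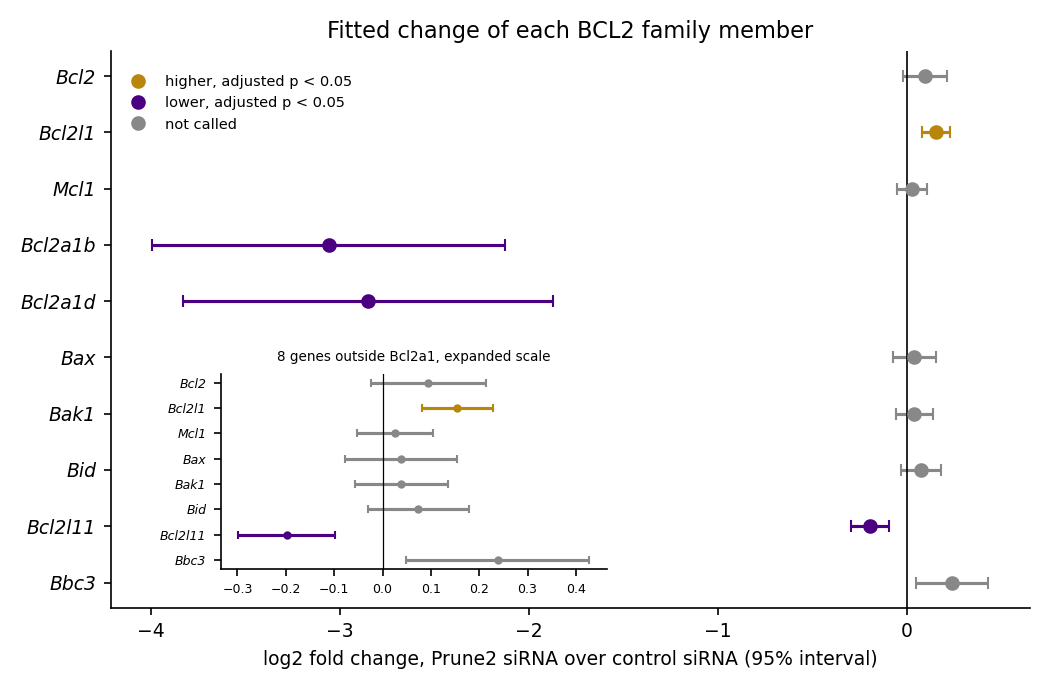
Fitted log2 fold change of each member, Prune2 siRNA over control siRNA, with its 95% interval from edgeR. The inset repeats the 8 genes outside Bcl2a1 on an expanded scale, where Bcl2l1 lies above 0 at 0.15 and Bcl2l11 below 0 at -0.20.

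Among the survival members, Bcl2l1, which encodes the groove protein BCL-XL and a shorter death-promoting splice form, measured 201, 198 and 204 CPM with Prune2 siRNA and 184, 180 and 178 CPM with control siRNA. Each Prune2 siRNA library lay above each control library. The means were 201 ± 2.59 and 181 ± 3.19 CPM (SD, n = 3 each), a rise of 11.3% (log2 fold change 0.15, SE 0.04, 95% interval 0.08 to 0.23; edgeR adjusted p = 0.00403). Gene counts do not separate its long and short forms. The call held under all 15 alternatives run for it, with adjusted p from 0.0016 to 0.0316.

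Mcl1, a survival protein with a very short half-life, measured 200, 186 and 201 CPM with Prune2 siRNA and 195, 188 and 193 CPM with control siRNA, and the groups overlapped. Its log2 fold change was 0.03 (95% interval -0.05 to 0.11; edgeR adjusted p = 0.798). Bcl2, which encodes the founding member, measured 39.4, 39.2 and 42.8 CPM with Prune2 siRNA and 36.8, 37.3 and 39.6 CPM with control siRNA, again with overlap (log2 fold change 0.09, 95% interval -0.02 to 0.21; edgeR adjusted p = 0.397). A gene whose interval spans 0 is not shown to be unaltered.

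The Bcl2a1 copies, which encode the A1 survival proteins of granulocytes, macrophages and activated lymphocytes, were low in both groups and lower with Prune2 siRNA. Bcl2a1b had 3, 3 and 5 counts with Prune2 siRNA and 41, 18 and 30 counts with control siRNA. Bcl2a1d had 6, 2 and 2 counts with Prune2 siRNA and 27, 23 and 20 counts with control siRNA. In both copies every Prune2 siRNA library lay below every control library. The means were 0.162 ± 0.0449 and 1.40 ± 0.558 CPM for Bcl2a1b (SD, n = 3 each), a log2 fold change of -3.06 (SE 0.45, 95% interval -3.99 to -2.13; edgeR adjusted p = 2.44e-05). For Bcl2a1d they were 0.152 ± 0.114 and 1.11 ± 0.227 CPM, a log2 fold change of -2.85 (SE 0.47, 95% interval -3.83 to -1.87; edgeR adjusted p = 0.000114). Without Prune2 siRNA replicate 1, which held 6 of the 10 counts of Bcl2a1d in that group, its log2 fold change was -3.60.

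Bcl2a1a, a further copy, had 1, 1 and 4 counts with Prune2 siRNA and 8, 20 and 21 counts with control siRNA and did not pass the filter. Summed over the 5 genes under the Bcl2a1 symbol, the counts were 10, 6 and 11 with Prune2 siRNA and 76, 64 and 71 with control siRNA. This sum, too, passed the filter only through the control group, so a lower call was the only one open to it. The sum was 8.22-fold lower with Prune2 siRNA (0.401 ± 0.121 and 3.33 ± 0.334 CPM, SD, n = 3 each; log2 fold change -3.04, SE 0.29; edgeR adjusted p = 2.56e-08). Pooled over the libraries of a group, the shares of Bcl2a1b and Bcl2a1d in the sum had overlapping intervals. Single control libraries differed, with 41, 18 and 30 counts of Bcl2a1b beside 8, 20 and 21 of Bcl2a1a, which pooling hides. Bcl2a1b held 40.7% of 27 counts with Prune2 siRNA (95% exact Clopper-Pearson interval 22.4 to 61.2) and 42.2% of 211 with control siRNA (35.4 to 49.2). Bcl2a1d held 37.0% (19.4 to 57.6) and 33.2% (26.9 to 40.0). These intervals cover counting error only.

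Leukocyte markers moved with the Bcl2a1 copies. Of 22 tested, 21 were lower with Prune2 siRNA and 0 were higher, beside 5.83% and 4.46% of all tested genes. Their median log2 fold change was -2.62 against 0.00 for all tested genes, and Cd14 was the marker not called. Their summed level was 60.5, 60.3 and 64.1 CPM with Prune2 siRNA and 270, 286 and 232 CPM with control siRNA, and no marker of the list was at 0 in all libraries. Among them, Cd74, which chaperones MHC class II, averaged 5.50 CPM with Prune2 siRNA and 42.7 CPM with control siRNA, and Ptprc (CD45), carried by nearly all leukocytes, 1.90 and 8.98 CPM. Neutrophil markers were near 0, with sums of 0.142 to 0.256 CPM and 0.304 to 0.391 CPM. None of the 8 neutrophil markers passed the filter, and Mpo, Elane, Retnlg and S100a9 had 0 counts in all 6 libraries. Of 10 lymphocyte and mast cell markers 5 were at 0 in all 6 libraries, the mast cell genes Cpa3 and Fcer1a among them. The single tested one, Kit, was lower (log2 fold change -0.30, edgeR adjusted p = 0.029). Kit averaged 11.2 CPM with Prune2 siRNA and 13.8 CPM with control siRNA, and its reads cannot be assigned to leukocytes here.

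Set against the summed leukocyte markers, the summed Bcl2a1 level amounted to 0.780%, 0.434% and 0.732% with Prune2 siRNA and 1.37%, 1.12% and 1.33% with control siRNA. The ratio was lower in each Prune2 siRNA library than in any control library, by 1.01 on the log2 scale between group means (log2 difference -1.01). An exact two-sided permutation test gave p = 0.1, the smallest that 3 libraries against 3 allow. With Ptprc alone below the line, the log2 difference was -0.85 and p was again 0.1 in the exact test. The gap depended on the marker used, as seen when each of the 21 lower markers was set alone below the line, a comparison added after the values were seen. The groups overlapped for 13 markers, the ratio was lower with Prune2 siRNA without overlap for 7, and for Cd48, at 0 in some libraries, no ratio could be formed. Against Cd74 the Bcl2a1 sum was 9.90%, 4.65% and 7.69% with Prune2 siRNA and 8.63%, 7.13% and 7.66% with control siRNA, a log2 difference of -0.14 (exact two-sided permutation p = 0.9). Over the markers used alone the log2 difference ran from -2.01 for Csf1r to 1.30 for Cx3cr1, with a median of -0.45. The fall of single markers ranged from -5.58 to -1.09 on the log2 scale, and 2 markers lay below the summed Bcl2a1 value. Spi1, which encodes PU.1, averaged 0.613 CPM with Prune2 siRNA and 2.83 CPM with control siRNA (log2 fold change -2.18, edgeR adjusted p = 3.88e-05). Without Prune2 siRNA replicate 2, in which it was highest of its group, the value was -2.96. The part of the leukocyte markers in the Bcl2a1 result was not tested.

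**Figure D3:**
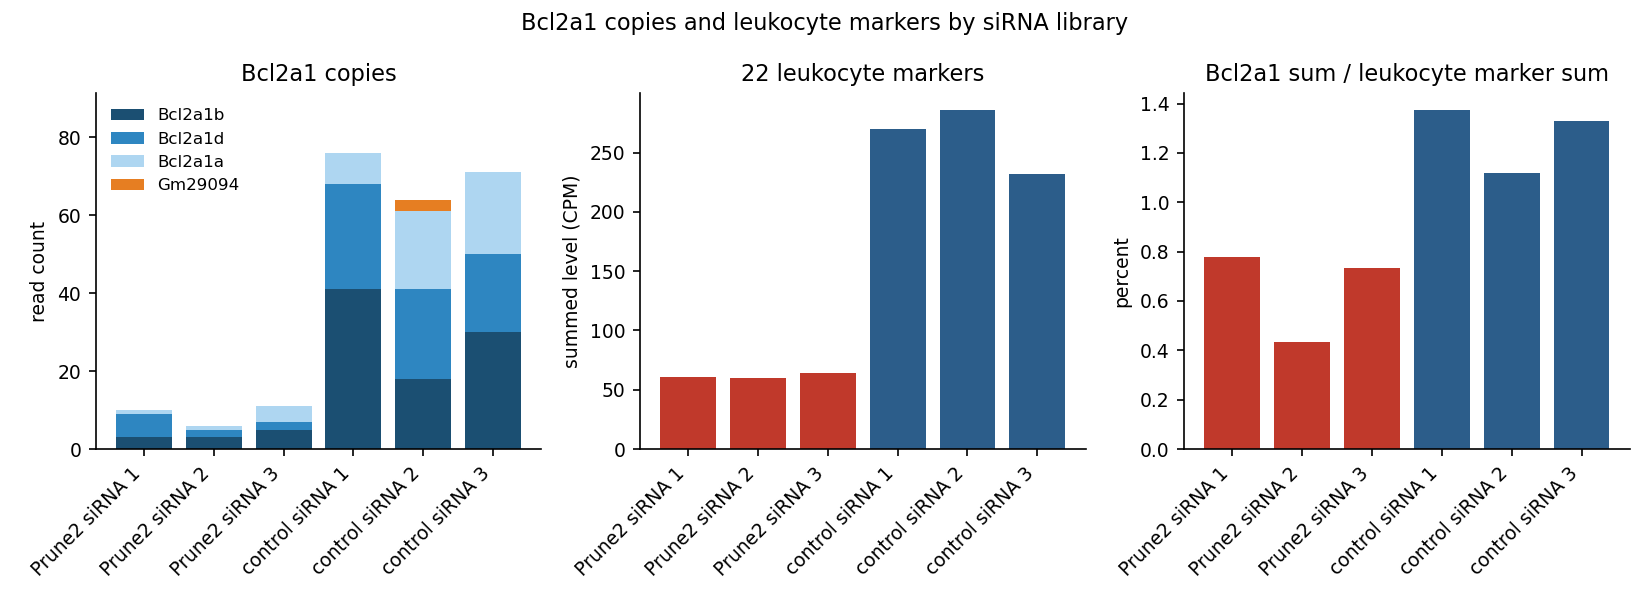
From left to right, read counts of the Bcl2a1 copies stacked by copy, the summed CPM of 22 leukocyte markers, and the Bcl2a1 sum as a percent of that marker sum, in each of the 3 Prune2 siRNA and 3 control siRNA libraries. All 3 measures are lower in each Prune2 siRNA library, with at most 11 Bcl2a1 counts, than in any control library, with at least 64.

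The effectors did not pass the test. Bax, which moves from cytosol to mitochondria on activation, measured 44.6, 42.0 and 40.3 CPM with Prune2 siRNA and 42.3, 41.6 and 39.7 CPM with control siRNA. Bak1, whose product sits in the outer membrane before any signal, measured 113, 100 and 110 CPM with Prune2 siRNA and 110, 104 and 100 CPM with control siRNA. In both genes the groups overlapped. The log2 fold changes were 0.04 (95% interval -0.08 to 0.15; edgeR adjusted p = 0.787) for Bax and 0.04 (-0.06 to 0.13; adjusted p = 0.727) for Bak1. The Bax to Bcl2 ratio, a commonly quoted index of the balance, was 1.13, 1.07 and 0.943 with Prune2 siRNA and 1.15, 1.12 and 1.00 with control siRNA in CPM, again with overlap. Exons of Ggnbp1 on the opposite strand share bases with Bak1, but its 2 annotated entries held at most 27 counts in any library.

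Among the BH3-only members, Bcl2l11, which encodes BIM and binds all survival members, measured 68.9, 70.5 and 71.1 CPM with Prune2 siRNA and 81.7, 74.7 and 85.0 CPM with control siRNA. Each Prune2 siRNA library lay below each control library. The means were 70.2 ± 1.14 and 80.4 ± 5.28 CPM (SD, n = 3 each; log2 fold change -0.20, SE 0.05, 95% interval -0.30 to -0.10; edgeR adjusted p = 0.00695). Without control siRNA replicate 3, the highest library, the log2 fold change was -0.16 and the adjusted p 0.0602 in edgeR, and on log2(FPKM + 1) and log2(FPKM + 0.1) limma gave adjusted p = 0.0918 and 0.0910. Over its 15 alternatives the adjusted p ran from 0.0011 to 0.0918.

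Bbc3, which encodes the p53-induced PUMA, measured 13.7, 13.9 and 13.2 CPM with Prune2 siRNA and 12.5, 10.5 and 11.6 CPM with control siRNA. The groups did not overlap, yet the gene was not called (log2 fold change 0.24, 95% interval 0.05 to 0.43; edgeR adjusted p = 0.114, and 0.0156 before adjustment). It was called under none of 15 alternatives, with adjusted p from 0.0771 to 0.398. Bid, the link from death receptors that caspase-8 cleaves, measured 52.6, 51.7 and 52.0 CPM with Prune2 siRNA and 51.4, 49.9 and 47.2 CPM with control siRNA. Its groups did not overlap either, and its log2 fold change of 0.07 (95% interval -0.03 to 0.18) did not pass (edgeR adjusted p = 0.475). Bid shares 628 of its 3550 exon bases with Bcl2l13 on the opposite strand, and without known strand use in counting the reads there cannot be told apart.

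**Figure D4:**
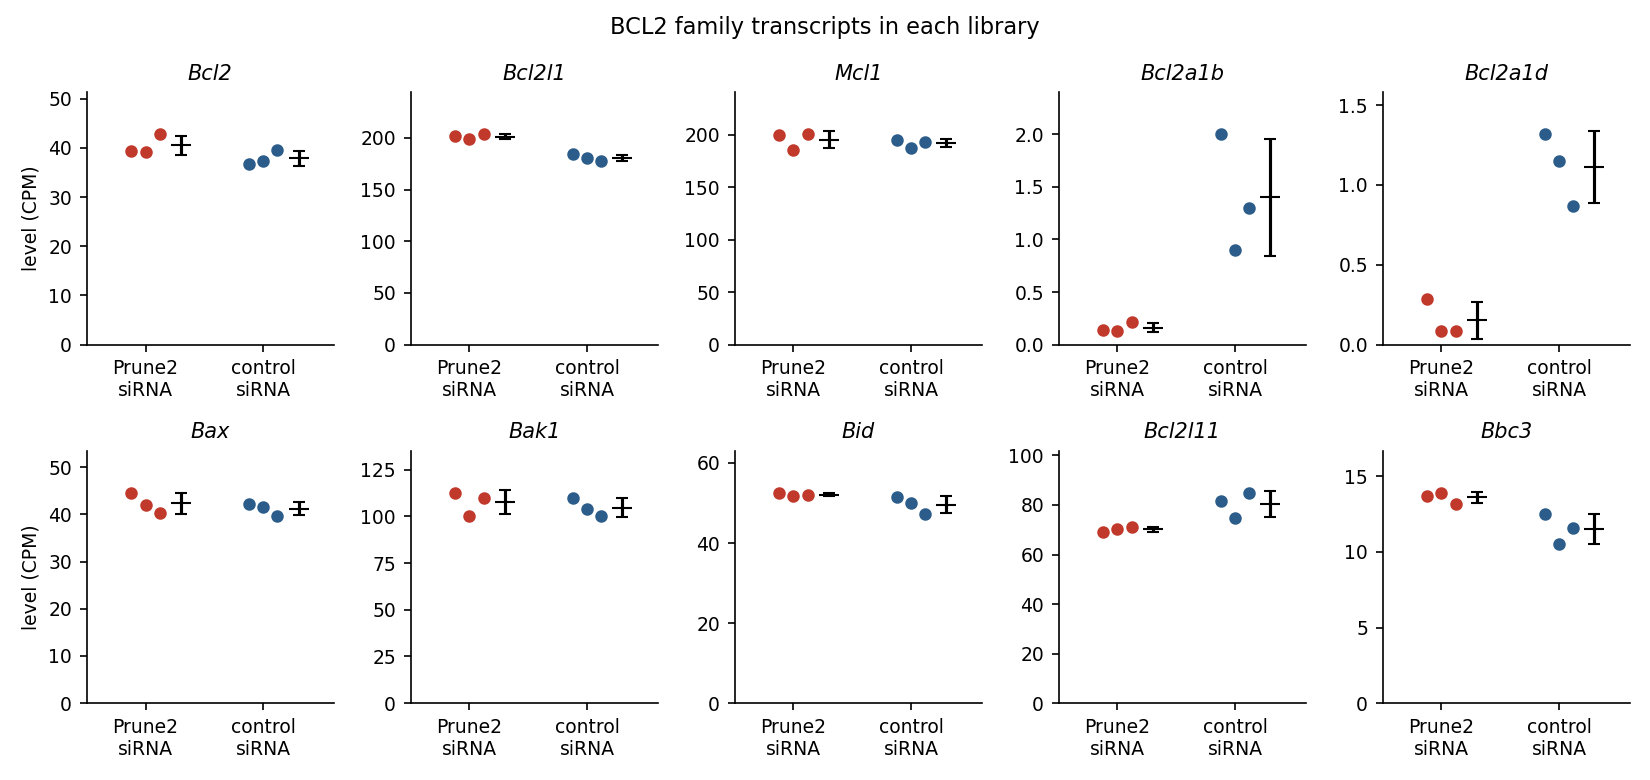
TMM-scaled CPM of each of the 10 members in the 3 Prune2 siRNA libraries (left in each panel) and the 3 control siRNA libraries (right), each point a library and each bar a group mean with its SD. Bcl2l1 is higher and Bcl2l11 and both Bcl2a1 copies are lower in every Prune2 siRNA library, and Mcl1, Bcl2, Bax and Bak1 overlap between groups.

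The called survival gene and the called BH3-only gene moved apart, which is visible in their ratio within each library. Bcl2l1 to Bcl2l11 stood at 2.92, 2.82 and 2.86 with Prune2 siRNA and at 2.25, 2.42 and 2.09 with control siRNA in CPM (2.87 ± 0.0530 and 2.25 ± 0.162, SD, n = 3 each). Bcl2l1 to Mcl1, the ratio of the abundant survival genes, was 1.01, 1.07 and 1.01 with Prune2 siRNA and 0.944, 0.962 and 0.919 with control siRNA. In CPM, both ratios were higher in each Prune2 siRNA library than in any control library. In FPKM this held for Bcl2l1 to Bcl2l11 only. There Bcl2l1 to Mcl1 overlapped between groups, from 1.18 to 1.38 with Prune2 siRNA and up to 1.26 with control siRNA. The separation of that ratio thus depended on the unit. The CPM ratios follow from the values above, and no ratio was tested.

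Counts divided by FPKM give the transcript length that the authors' values imply, which can shift when isoform use shifts. It was testable in 8 members, and 0 of the 8 and 0% of 11975 genes differed between groups by limma at an adjusted p under 0.05, with 662 genes at an unadjusted p under 0.05. The largest difference was that of Mcl1, whose exon-skipped form encodes a death-promoting protein, at 2.80, 2.95 and 2.73 kb with Prune2 siRNA and 2.87, 3.01 and 3.05 kb with control siRNA (log2 difference -0.07, limma adjusted p = 0.467). For Bcl2l11 the log2 difference in implied length was 0.03.

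Other members of the family were called at a share near that of all tested genes. Of 15 further BCL2 and BNIP family genes tested, 0 were higher and 1 was lower, beside 10.3% of all tested genes called, with a median log2 fold change of -0.01 against 0.00 for all tested genes. The lower gene was Pmaip1, which encodes NOXA, the BH3-only partner of MCL1. It measured 277, 292 and 273 CPM with Prune2 siRNA and 327, 333 and 325 CPM with control siRNA, without overlap (log2 fold change -0.22, SE 0.04; edgeR adjusted p = 6.76e-05). It was called under all 15 alternatives.

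Downstream of the members, of 18 genes of mitochondrial death, among them Apaf1, Casp9, Cycs and Diablo, 0 were called by edgeR, DESeq2 or limma-voom, beside 10.3% of all tested genes in edgeR, and 2 had an unadjusted edgeR p under 0.05 (Cycs and Vdac1, named after their values were seen). Of 8 inhibitors of apoptosis tested, 1 was higher and 2 were lower, beside the same 10.3% of all tested genes, with a median of -0.03. Birc3, the ubiquitin ligase cIAP2 and an NF-kB target, averaged 29.2 ± 1.83 CPM with Prune2 siRNA and 23.8 ± 1.23 CPM with control siRNA (SD, n = 3 each; edgeR adjusted p = 0.00366). On log2(FPKM + 1) its limma adjusted p was 0.103. The lower genes, Naip2 (0.767 and 3.69 CPM) and Naip5 (0.178 and 0.632 CPM), encode inflammasome sensors of macrophages and have near-identical copies, and Naip5 lost its call with DESeq2 (adjusted p = 0.104), without Prune2 siRNA replicate 2 (0.0695) and without control siRNA replicate 2 (0.0789).

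In the death receptor pathway, 1 of 14 tested genes was higher and 1 was lower, beside 10.3% of all tested genes called (median 0.04). Tnfrsf1b, the TNF receptor without a death domain, averaged 67.5 ± 1.59 CPM with Prune2 siRNA and 57.9 ± 1.97 CPM with control siRNA (SD, n = 3 each; log2 fold change 0.22, edgeR adjusted p = 0.00226). Casp8, the initiator caspase upstream of Bid, averaged 95.3 ± 2.90 and 105 ± 2.84 CPM (log2 fold change -0.14, edgeR adjusted p = 0.0231). The Casp8 call was lost without Prune2 siRNA replicate 2 (adjusted p = 0.110) or 3 (0.0517), without control siRNA replicate 2 (0.136) and on FPKM.

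The transcription factor p53 drives Bbc3 and Bax among other genes. Of 17 tested genes of p53 and its further targets, 3 were higher and 1, Pmaip1, was lower (median 0.02). Over all tested genes 10.3% were called. Gdf15, a stress cytokine, averaged 168 ± 11.1 CPM with Prune2 siRNA and 140 ± 12.4 CPM with control siRNA (SD, n = 3 each; log2 fold change 0.26, edgeR adjusted p = 0.000843). Perp, a desmosome protein, had a log2 fold change of 0.20, and Sesn2, a stress-induced sestrin named to complete the count, 0.17. Perp lost its call when any of Prune2 siRNA replicates 1 and 3 (adjusted p = 0.0859 and 0.124) or control siRNA replicates 1 and 3 (0.0663 and 0.0505) was left out. Trp53 itself was not called (log2 fold change 0.07, edgeR adjusted p = 0.291).

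Of 16 tested regulators of the members, 2 were higher and 1, Spi1, was lower, beside 10.3% of all tested genes called (median 0.02). Stat3, a transcription factor known to act on Bcl2l1 and Mcl1, averaged 177 ± 4.50 CPM with Prune2 siRNA and 162 ± 4.55 CPM with control siRNA (SD, n = 3 each; log2 fold change 0.13, edgeR adjusted p = 0.0300). Usp9x, the deubiquitinase of MCL1, averaged 584 ± 48.0 and 531 ± 17.8 CPM (log2 fold change 0.14, edgeR adjusted p = 0.0481), with overlapping groups. Stat3 lost its call under 6 alternatives and Usp9x under 7, so both lay close to the threshold.

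**Figure D5:**
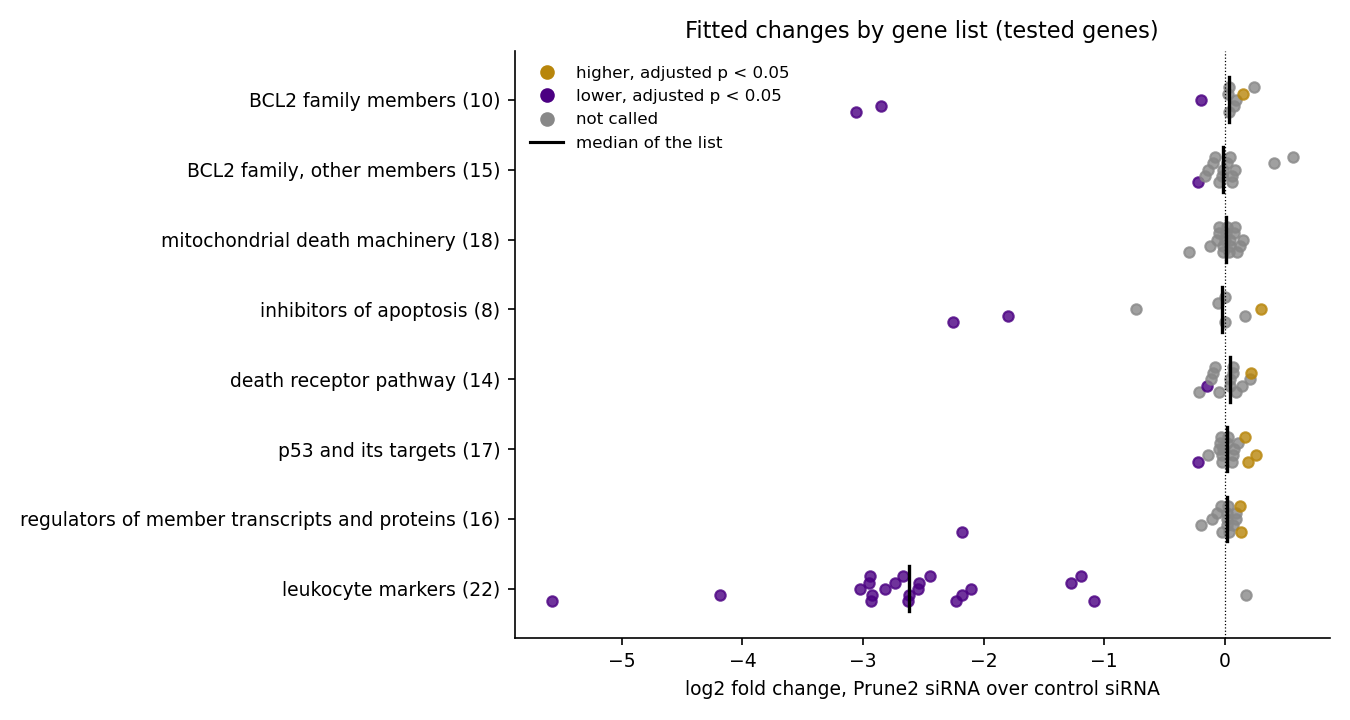
Log2 fold changes, Prune2 siRNA over control siRNA, of the tested genes of the 10 members and of 7 gene lists, each point a gene and each bar the median. The leukocyte markers sit apart at a median of -2.62, and the medians of the other lists lie between -0.03 and 0.04.

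Markers of other cells were set beside the small changes of Bcl2l1 and Bcl2l11. Over all tested genes 10.3% were called, 4.46% higher and 5.83% lower. Of 12 tested tubular epithelial markers 4 were higher and 2 lower, with sums of 5905, 5441 and 5794 CPM with Prune2 siRNA and 5959, 6019 and 5866 CPM with control siRNA. Of 9 fibroblast markers 4 were lower (median -0.21), with sums of 1544 to 1554 CPM and 1779 to 1826 CPM, among them Vim and Col1a1. Of 9 endothelial markers 5 were lower (median -0.49), with sums of 82.3 to 84.5 CPM and 108 to 117 CPM. Aqp2, the collecting duct water channel, was at 0 in all 6 libraries. The part of these markers in the changes of Bcl2l1 and Bcl2l11 was not tested.

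For each called member, the 3 genes most like it across the 6 libraries were named by Pearson's r of log2(CPM + 0.1), as a description. Only tested genes with a mean of at least 1 CPM over the 6 libraries were eligible, which left out the Bcl2a1 copies and other low genes. The 6 points share their library and its depth and fall into the 2 siRNA groups. For Bcl2l1 they were Pm20d1 (r = 0.995), H2-Q6 (0.994) and Marveld2 (0.991). For Bcl2l11 they were Actn1 (0.991), Tmem229b (0.991) and Scoc (0.990). For Bcl2a1b they were Loxl1 (0.999), Bcl6b (0.998) and AI593442 (0.997), and for Bcl2a1d Acta2 (0.998), Tbc1d1 (0.996) and Pik3ap1 (0.996). The r takes no account of size. Log2 fold changes were -0.29, -0.88 and -0.37 for the genes like Bcl2a1b (-3.06). For those like Bcl2a1d (-2.85) they were -0.29, -0.17 and -1.46. Actn1 (-0.06) and Tmem229b (-0.27) were called under 0 of 15 alternatives.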

How the data were processed

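The 3 Prune2 siRNA and 3 control siRNA RNA-seq libraries were compared, grouped by sample title. The authors deposited a table with a read count and an FPKM value for each gene and library, per the file headers, together with group mean FPKM, a log2 fold change and a p-value with its adjusted value. The submitters' processing notes name the builds GRCm38 and mm10. Aligner, counter, strand use and the authors' own test were not given in the sources used here. Of 22274 genes, 22219 were matched by identifier to GENCODE M21 (GRCm38).

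The deposited counts went into the quasi-likelihood test of edgeR 4.0.16 under R 4.3.3 (TMM scaling, filterByExpr, glmQLFit, glmQLFTest, Benjamini-Hochberg adjustment over 13248 genes). Calls were made at an adjusted p under 0.05. A standard error is the log2 fold change divided by the square root of F, and its intervals are 95% t intervals. CPM are counts over the TMM-scaled library size. Deposited FPKM served for levels between genes and, with a pseudocount of 1 or 0.1, for limma 3.58.1. Implied length is count over FPKM, tested by limma on the log2 scale in genes with at least 20 counts in every library. DESeq2 1.42.0 was an alternative. The fitting script was tested on simulated counts. Replicates of a group differed beyond sampling noise, with chi-square per degree of freedom from 2.57 to 3.92. Depth of 20075265 to 23234797 counts leaves Bcl2a1b and Bcl2a1d with 2 to 41 counts per library, so their fold changes are imprecise.

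The 10 members, the pathway and marker lists and the tests were chosen with earlier results of these data known. Apart from the members and Prune2, genes named are up to 2 called genes per direction and list with the smallest adjusted p, the 3 most like each called member, and others to resolve small counts or to check the cell label.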

Additional observations from a re-analysis of the deposited data

How the results depend on the processing

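Over all tested genes the count called changed, 1364, was 665 on log2(FPKM + 1), 655 on log2(FPKM + 0.1) and 902 at an adjusted p under 0.01, and it ran from 997 to 1249 when each library was left out in turn. The cause of these differences was not tested. Of the 10 members, 4 were called with TMM, RLE and upper-quartile scaling, no filter, DESeq2, limma-voom and an adjusted p under 0.01, 3 on both FPKM scales, and 3 to 4 when each library was left out in turn. At 10 counts in every library 2 were called, a filter that the Bcl2a1 copies fail by construction. Bax, not called, reversed to a log2 fold change of -0.00120 (edgeR adjusted p = 0.996) without Prune2 siRNA replicate 1, and ranged up to 0.0717 with other libraries left out. Same-numbered libraries did not deviate together (correlations 0.031, -0.037 and -0.017). With so few libraries per group this cannot decide whether the numbers pair the samples, and the labels do not say. With the replicate number as a block 1490 genes and 4 members were called. Prune2 lost its call on log2(FPKM + 1) and log2(FPKM + 0.1), with log2 fold changes of -0.24 and -0.43. Among genes named beside the members, Kit and Scoc each lost their call under 8 alternatives, Bcl6b under 4, Krt8 under 6 and Pm20d1 under 9. The implied-length count was 0 under every alternative run. The log2 difference of Bcl2a1 against leukocyte markers ran from -1.17 to -0.75 when each library was left out, and was -0.14 with Cd74 alone as the denominator, an alternative added after seeing the data. No scaling moved the median of all genes by over 0.1. The low counts of the Bcl2a1 copies limit precision.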
